A study of Saccharomyces cerevisiae with 17 samples.

Results

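The small-subunit processome is the nucleolar particle that turns the first stretch of a ribosomal RNA transcript into the small, 40S, ribosomal subunit. Its genes were followed in the budding yeast Saccharomyces cerevisiae as a set of 47, chosen by what their proteins do in 40S assembly. No measured value was a rule of that choice, but it was made with earlier results of these data known. Each was read by 1 probe set of an expression array, the one with the highest mean log2 signal where a gene had several, and the set made up 47 of the 5656 genes measured. NOP58, UTP20 and UTP22 had 4, 10 and 6 probe sets, and the other members had 1 each.

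All samples were of the strain CEN.PK113-7D (MATa MAL2-8C SUC2), grown without oxygen in glucose-limited chemostats at a dilution rate of 0.03 per h. A chemostat is a continuous culture in which the inflow of fresh medium sets the growth rate at steady state. Duplicate independent cultures were held at a constant 30 °C (SS_30) or a constant 12 °C (SS_12). Another pair of cultures went through 24-h sine cycles of temperature (DTC) between 30 and 12 °C and was sampled over cycles 5 and 6, to ask how far the response to a daily cycle follows from that at constant temperature. The 6 points of the cycle were 30 °C (DTC_30, hour 0), 21 °C while the temperature fell (DTC_21_decreasing, hour 6), 14.6 °C (DTC_14.6, hour 9), 12 °C (DTC_12, hour 12), 21 °C while it rose (DTC_21_increasing, hour 18) and 27.4 °C (DTC_27.4, hour 21). For every one of the 8 groups 2 arrays, numbered 1 and 2, entered the tests. The 27.4 °C array with the number 3 did not enter them, because an extra analytical duplicate was taken at that point. Which of the 3 arrays there is the duplicate is not given, so leaving out number 3 was a choice. Arrays 1 and 2 correlated at 0.962, 1 and 3 at 0.976, and 2 and 3 at 0.971. The labels do not tie an array of the cycle to a culture or to 1 of the cycles, so p-values measure the spread between arrays, which may share cultures. The samples hold 1 strain under 1 nutrient limitation, and no growth rate at single points of the cycle was used here.

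The processome forms on the ribosomal RNA precursor while RNA polymerase I is still transcribing it. Subcomplexes named UtpA and UtpB dock on the external spacer at its start. The U3 small nucleolar RNA, which is bound to its proteins, base pairs with the ribosomal RNA precursor. Helicases, a GTPase and nucleases then remodel and cut that RNA until a 40S precursor is released. In S. cerevisiae the genes of these factors belong to the ribosome biogenesis regulon, whose messenger RNAs are known to rise and fall together with growth conditions and nutrient signals.

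Between 5302 and 5390 genes lay above background on the 16 arrays used, background being a log2 signal of 3.41, the 95th percentile of 28 control probe sets. Replicate arrays correlated at 0.956 to 0.984 across genes, lowest for cycle 30 °C. The ratio of 3' to 5' signal along the ACT1 transcript, a measure of RNA quality, was 1.16 to 1.82, and that of SPT15 was 2.01 to 5.67. Their part in the results was not tested. The MATa genes STE2, MFA1, MFA2, BAR1 and AGA2 were above background on all 16 arrays, and so was STE3, a gene of the opposite mating type, at a median log2 signal of 5.85. The anaerobic genes DAN1 and TIR1 had medians of 12.48 and 12.79, and CYC1 and ROX1, known as genes of aerobic growth, were above background too. Arrays were scaled to a common level and RNA came from whole cultures, so that fewer cells with a transcript and less transcript per cell cannot be told apart. Of the 47 members, 38 were above background on all 16 arrays, and the other 9 were under it only on arrays of 21 °C rising.

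Across the 8 groups the processome genes stood highest at the coldest point of the cycle and lowest 6 h later. Relative to constant 30 °C, the median of their log2 signals was 0.37 higher at constant 12 °C. Through the cycle it stood at -0.17 at 30 °C, 0.53 at 21 °C falling, 0.99 at 14.6 °C and 1.39 at 12 °C, then at -1.79 at 21 °C rising and -0.48 at 27.4 °C. At 12 °C 46 members had means above that of constant 30 °C, and at 21 °C rising 0 had. On the cycle alone all 47 had their lowest mean at 21 °C rising, the lowest point of 28.5% of all 5656 genes. The highest mean was at 12 °C for 36 members, at 14.6 °C for 10 and at 21 °C falling for 1, ESF1, against 25.6%, 12.5% and 12.5% of all genes. The lines by hour of the cycle show a climb through cooling and a drop within the first part of rewarming.

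**Figure D1:**
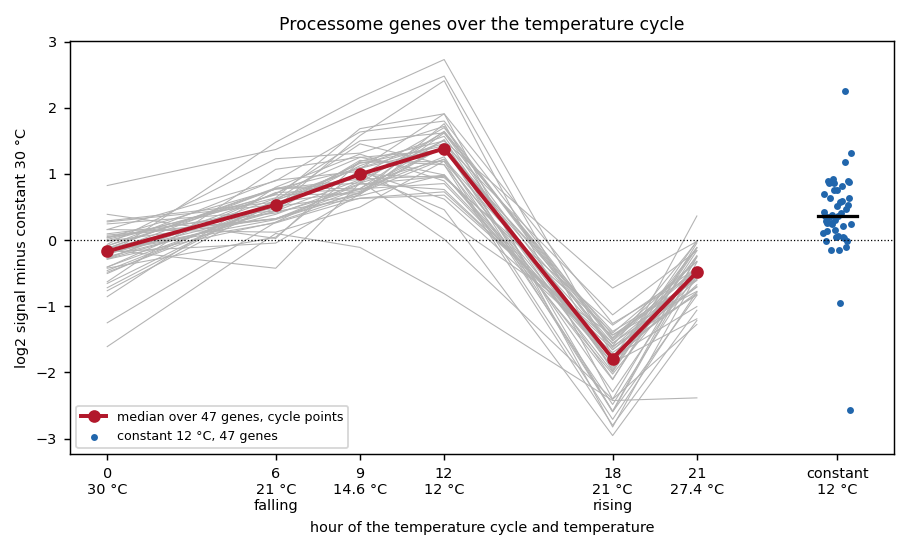
Log2 signal of each of the 47 genes minus its mean at constant 30 °C (vertical axis) by hour of the temperature cycle (horizontal axis). Grey lines are genes (means of 2 arrays), the red line is their median, which goes from -0.17 at 30 °C to 1.39 at 12 °C and -1.79 at 21 °C rising, and blue points are the same genes at constant 12 °C, with their median of 0.37 as a bar.

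Array by array, both arrays of 21 °C rising lay below all 14 other arrays for 43 of the 47 members, as they did for 12.6% of all genes. The exceptions were NAN1, RRP7, BFR2 and ESF1. Both arrays of cycle 12 °C lay above all 14 others for 21 members and for 7.44% of all genes.

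**Figure D2:**
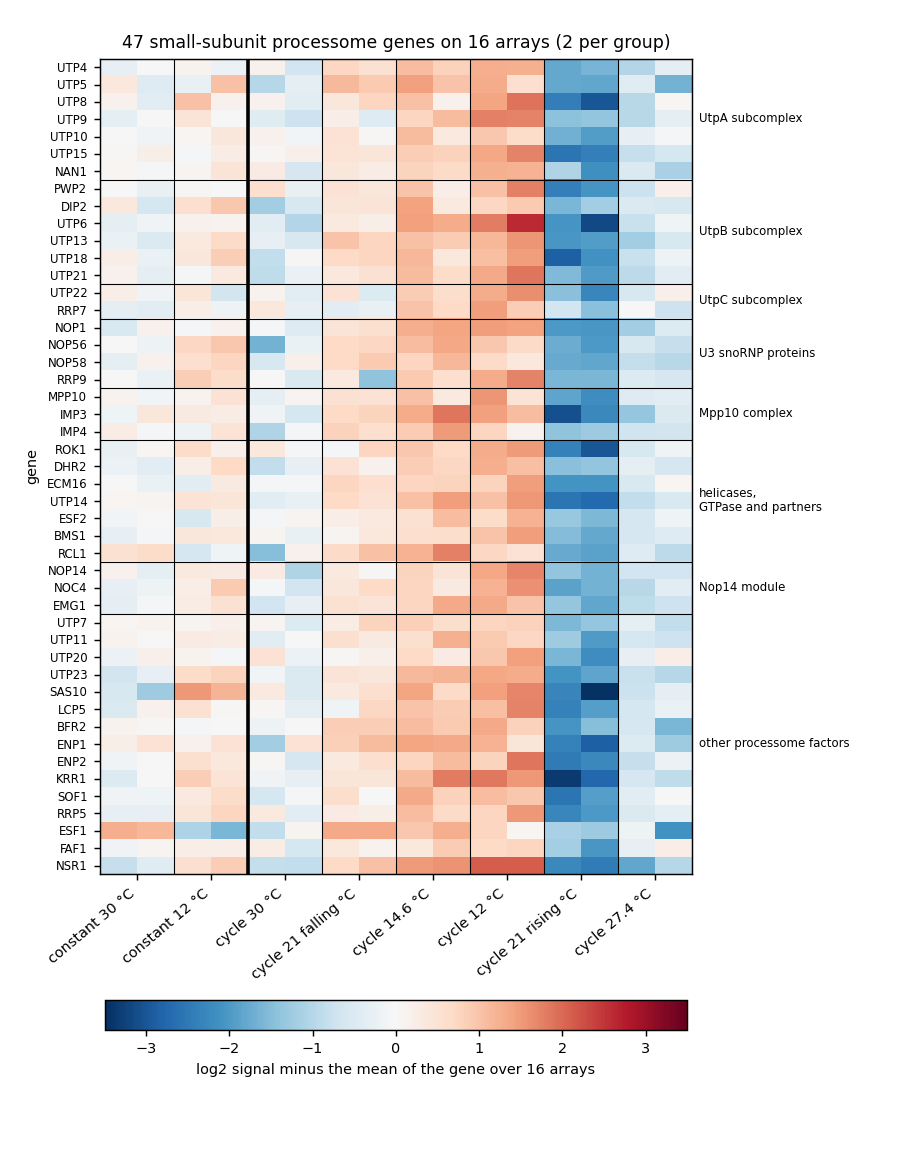
Log2 signal of the 47 genes (rows, grouped by role) on the 16 arrays (columns, 2 per group), each minus the gene's own mean over the arrays. Columns of 21 °C rising are blue, those of cycle 12 °C red in nearly all rows, and ESF1 stands out by its red cells at constant 30 °C (8.74 and 8.63).

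The UtpA subcomplex is the first to bind the precursor. All 7 of its genes rose from 30 to 12 °C in the cycle and all 7 fell from there to 21 °C rising, but none passed the test between the constant temperatures. In log2 signal of array 1 and array 2, as for all later readings, UTP9 read 6.10 and 6.40 at constant 30 °C and 6.85 and 6.39 at constant 12 °C, and these arrays overlapped. In the cycle UTP9 read 5.98 and 5.67 at 30 °C, 6.64 and 5.95 at 21 °C falling, 7.15 and 7.50 at 14.6 °C, 8.17 and 8.15 at 12 °C, 4.97 and 5.01 at 21 °C rising and 5.44 and 6.06 at 27.4 °C. Its arrays of cycle 12 °C were the highest of the 16, and from 30 to 12 °C in the cycle it rose by 2.33 ± 0.29 on the log2 scale (SE, 2 arrays per group, 5.04-fold, limma adjusted p = 0.000122). UTP5 read 7.01 and 6.21 at constant 30 °C and 6.40 and 7.67 at constant 12 °C, again with overlap. Its cycle arrays read 5.65 and 6.31 at 30 °C, 7.79 and 7.57 at 21 °C falling, 8.08 and 7.65 at 14.6 °C, 7.95 and 7.24 at 12 °C, 4.85 and 4.82 at 21 °C rising and 6.22 and 4.99 at 27.4 °C. UTP5 had the largest amplitude of a 24-h rhythm in UtpA, 1.42 ± 0.18 (log2, the height of a fitted cosine above its mean), with a peak at hour 7.81, and its arrays at 27.4 °C lay far apart. From 12 °C to 21 °C rising UTP15 fell by 4.02 ± 0.20 and UTP9 by 3.17 ± 0.29. The falls of NAN1, UTP5 and UTP10 were 2.83 ± 0.36, 2.76 ± 0.48 and 2.62 ± 0.28. Both arrays of UTP4 at 21 °C rising were under background, so that against background as its level there it was at least 5.88-fold lower than at 12 °C. Where 1 of the arrays was under background, that array alone was raised to it, and UTP8 was then at least 20.4-fold lower (adjusted p = 7.69e-06 on the signals as read).

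UtpB, a complex made mostly of WD-repeat proteins, joins next. Its 6 genes rose from cycle 30 to cycle 12 °C and fell after it, with a median change of -3.49 (-3.35 with arrays under background raised to it), and UTP13 alone passed between the constant temperatures (0.86 ± 0.26, adjusted p = 0.0319). UTP6, whose protein is built of helical HAT repeats, read 5.23 and 5.43 at constant 30 °C and 5.70 and 5.66 at constant 12 °C, a small gap without overlap. In the cycle UTP6 read 5.17 and 4.52 at 30 °C, 5.87 and 5.76 at 21 °C falling, 6.97 and 6.85 at 14.6 °C, 7.32 and 8.16 at 12 °C, 3.47 and 2.38 at 21 °C rising and 4.77 and 5.38 at 27.4 °C. Its constant-temperature arrays lay close together, while those of the cycle ran from under background at 21 °C rising to the highest of the 16 at 12 °C. UTP6 was 7.44-fold higher at cycle 12 than at cycle 30 °C (2.90 ± 0.38, adjusted p = 0.000166) and at least 19.7-fold lower at 21 °C rising than at 12 °C (adjusted p = 1.28e-06), where 1 of its arrays and their mean were under background. UTP21 read 7.17 and 6.68 at constant 30 °C and 6.98 and 7.38 at constant 12 °C, which overlapped. Its cycle arrays read 6.14 and 6.79 at 30 °C, 7.39 and 7.57 at 21 °C falling, 8.12 and 7.67 at 14.6 °C, 8.35 and 8.90 at 12 °C, 5.49 and 5.04 at 21 °C rising and 6.11 and 6.62 at 27.4 °C. The cycle arrays of UTP21 at 30 and 12 °C did not overlap, and the rise was 4.47-fold (2.16 ± 0.32, adjusted p = 0.000362). After 12 °C UTP18, which recruits a helicase of the RNA exosome, fell by 3.75 ± 0.39 and DIP2 (UTP12) by 2.23 ± 0.38. PWP2 (UTP1) was at least 7.07-fold lower at 21 °C rising, with both arrays under background.

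UtpC was represented in the set by UTP22 and RRP7 alone. UTP22 read 7.49 and 7.12 at constant 30 °C and 7.68 and 6.62 at constant 12 °C. In the cycle its arrays read 7.36 and 6.89 at 30 °C, 7.75 and 6.77 at 21 °C falling, 8.14 and 7.86 at 14.6 °C, 8.56 and 8.88 at 12 °C, 5.79 and 4.97 at 21 °C rising and 6.70 and 7.42 at 27.4 °C. The constant-temperature arrays of UTP22 overlapped, and those of cycle 12 °C were the highest of the 16. From cycle 30 to cycle 12 °C UTP22 rose by 1.60 ± 0.43 and RRP7 by 1.11 ± 0.34, and after it UTP22 fell by 3.35 ± 0.43 and RRP7 by 2.23 ± 0.34. Neither passed the test for a 24-h rhythm (amplitudes 0.86 ± 0.30 and 0.64 ± 0.23, adjusted p = 0.0811 and 0.0898). The 6 probe sets of UTP22 disagreed, with differences between cycle 12 and cycle 30 °C from -0.44 to 2.10, and 4 of the 6 had a mean under background.

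Of the U3 particle, the proteins in the set were NOP1 (fibrillarin, an RNA methyltransferase), its partners NOP56 and NOP58, and RRP9, which binds U3 specifically. NOP1 read 8.57 and 9.26 at constant 30 °C and 9.07 and 9.25 at constant 12 °C, with overlap. In the cycle NOP1 read 9.02 and 8.64 at 30 °C, 9.56 and 9.66 at 21 °C falling, 10.36 and 10.47 at 14.6 °C, 10.55 and 10.52 at 12 °C, 7.10 and 7.07 at 21 °C rising and 7.87 and 8.61 at 27.4 °C. It rose 3.27-fold from cycle 30 to cycle 12 °C (1.71 ± 0.28, adjusted p = 0.000666), then fell by 3.45 ± 0.28, and its fitted amplitude was 1.32 ± 0.23. NOP56 read 6.58 and 8.00 at cycle 30 °C and 9.17 and 8.91 at cycle 12 °C, a rise of 1.75 ± 0.36 from a pair of unequal arrays. NOP58 differed by 0.71 ± 0.27 between these points, not past the test (adjusted p = 0.0642), and after 12 °C it fell by 2.32 ± 0.27. The 4 probe sets of NOP58 ranged from 0.44 to 1.13 in the former difference and from -1.11 to 1.13 between constant temperatures. RRP9 read 7.72 and 5.95 at 21 °C falling, where 1 array was far below the other, and fell by 3.12 ± 0.43 after 12 °C.

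MPP10, IMP3 and IMP4 form a complex that helps U3 pair with the ribosomal RNA precursor. IMP3 read 7.24 and 7.78 at constant 30 °C and 7.69 and 7.65 at constant 12 °C, with overlap. Its cycle arrays read 7.25 and 6.76 at 30 °C, 8.07 and 8.15 at 21 °C falling, 8.67 and 9.26 at 14.6 °C, 8.83 and 8.47 at 12 °C, 4.30 and 5.12 at 21 °C rising and 6.03 and 6.87 at 27.4 °C. The highest arrays of IMP3 were those of 14.6 and 12 °C and the lowest those of 21 °C rising, and its amplitude of 1.64 ± 0.29 was the largest of the 3. From cycle 30 to cycle 12 °C IMP3 rose by 1.64 ± 0.36, MPP10 by 1.12 ± 0.34 and IMP4 by 0.98 ± 0.35. From 12 °C to 21 °C rising IMP3 fell by 3.94 ± 0.36, MPP10 by 3.01 ± 0.34 and IMP4 by 1.76 ± 0.35. Between constant temperatures none of them passed, with differences of 0.05 to 0.30.

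The enzymes and their partners were the helicases ROK1, DHR2 and ECM16 (Dhr1, which unwinds U3 from the precursor), UTP14, which activates Dhr1, ESF2, a cofactor of the helicase Dbp8, the GTPase BMS1 and its partner RCL1. All 7 rose from cycle 30 to cycle 12 °C and fell after it. UTP14 read 6.74 and 6.77 at constant 30 °C and 7.14 and 7.10 at constant 12 °C, without overlap and not past the test. In the cycle UTP14 read 6.28 and 6.42 at 30 °C, 7.38 and 7.17 at 21 °C falling, 7.71 and 8.15 at 14.6 °C, 7.71 and 8.18 at 12 °C, 4.13 and 3.96 at 21 °C rising and 5.81 and 6.14 at 27.4 °C. Its arrays of 21 °C rising were the lowest of the 16, the fall from 12 °C was 3.90 ± 0.23 (14.9-fold lower, adjusted p = 2.21e-07), and its amplitude was 1.46 ± 0.29. At the same step ROK1 fell by 4.09 ± 0.32, ECM16 by 3.22 ± 0.29, BMS1 by 2.88 ± 0.22, DHR2 by 2.59 ± 0.25 and ESF2 by 2.37 ± 0.30. RCL1 read 7.14 and 7.27 at constant 30 °C and 6.03 and 6.48 at constant 12 °C, lower in the cold without overlap, yet the difference of -0.95 ± 0.42 did not pass (adjusted p = 0.127). In the cycle RCL1 read 5.14 and 6.77 at 30 °C, 7.30 and 7.65 at 21 °C falling, 7.83 and 8.37 at 14.6 °C, 7.33 and 7.11 at 12 °C, 4.85 and 4.75 at 21 °C rising and 6.17 and 5.69 at 27.4 °C. From its unequal arrays at cycle 30 °C to cycle 12 °C RCL1 rose by 1.27 ± 0.42 (adjusted p = 0.0367).

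NOP14, its partner NOC4 and the ribosomal RNA methyltransferase EMG1 act together. EMG1 read 7.90 and 8.16 at constant 30 °C and 8.49 and 8.76 at constant 12 °C, without overlap. In the cycle EMG1 read 7.56 and 7.94 at 30 °C, 8.78 and 8.70 at 21 °C falling, 9.00 and 9.56 at 14.6 °C, 9.55 and 9.23 at 12 °C, 6.89 and 6.41 at 21 °C rising and 7.34 and 7.50 at 27.4 °C. All arrays of EMG1 at 14.6 and 12 °C were above all those at constant temperature, and its amplitude was 1.13 ± 0.17. From cycle 30 to cycle 12 °C NOP14 rose by 1.91 ± 0.36, NOC4 by 1.76 ± 0.31 and EMG1 by 1.64 ± 0.26. After 12 °C NOC4 fell by 3.17 ± 0.31 and EMG1 by 2.73 ± 0.26. NOP14, with 1 array and the mean under background at 21 °C rising, was at least 7.64-fold lower there than at 12 °C (adjusted p = 2.84e-05).

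The remaining 15 genes encode factors outside these modules, and 12 of them rose from cycle 30 to cycle 12 °C. NSR1, the yeast counterpart of nucleolin and a gene known to respond to cold, read 7.80 and 8.20 at constant 30 °C and 9.17 and 9.47 at constant 12 °C. Its cycle arrays read 7.77 and 7.76 at 30 °C, 9.31 and 9.65 at 21 °C falling, 10.11 and 10.20 at 14.6 °C, 10.74 and 10.72 at 12 °C, 6.35 and 6.16 at 21 °C rising and 6.80 and 7.62 at 27.4 °C. NSR1 had the largest cycle rise of the 47, 7.84-fold (2.97 ± 0.27, adjusted p = 1.63e-05), and the largest amplitude, 1.83 ± 0.24. KRR1, a protein with a KH domain, which binds RNA, read 6.04 and 6.53 at constant 30 °C and 7.37 and 6.99 at constant 12 °C. In the cycle KRR1 read 6.38 and 6.21 at 30 °C, 6.92 and 6.93 at 21 °C falling, 7.61 and 8.33 at 14.6 °C, 8.36 and 8.03 at 12 °C, 3.17 and 3.75 at 21 °C rising and 5.91 and 5.61 at 27.4 °C. KRR1 was at least 24.4-fold lower at 21 °C rising than at 12 °C (adjusted p = 3.44e-07), with 1 array there under background.

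SAS10 (UTP3), a relative of LCP5, read 6.74 and 6.06 at constant 30 °C and 8.82 and 8.50 at constant 12 °C. Its cycle arrays read 7.66 and 6.79 at 30 °C, 7.65 and 7.89 at 21 °C falling, 8.69 and 7.99 at 14.6 °C, 8.74 and 9.02 at 12 °C, 4.99 and 3.84 at 21 °C rising and 6.55 and 6.98 at 27.4 °C. For SAS10 the constant 12 °C arrays overlapped those of cycle 12 °C, while the constant 30 °C arrays were both lower than either array of cycle 30 °C. UTP23, which helps to release the snR30 small nucleolar RNA, read 7.40 and 7.77 at constant 30 °C and 8.69 and 8.84 at constant 12 °C. In the cycle UTP23 read 7.95 and 7.54 at 30 °C, 8.50 and 8.46 at 21 °C falling, 9.20 and 9.24 at 14.6 °C, 9.41 and 9.36 at 12 °C, 5.96 and 6.20 at 21 °C rising and 7.28 and 7.05 at 27.4 °C. Its arrays at 14.6 and 12 °C were the highest of the 16, and it fell by 3.31 ± 0.21 after 12 °C. ENP1, which stays on the particle into late maturation, read 7.25 and 7.53 at constant 30 °C and 7.19 and 7.55 at constant 12 °C. Its cycle arrays read 5.81 and 7.53 at 30 °C, 7.86 and 8.14 at 21 °C falling, 8.42 and 8.35 at 14.6 °C, 8.24 and 7.46 at 12 °C, 4.68 and 4.19 at 21 °C rising and 6.56 and 5.79 at 27.4 °C. The constant-temperature arrays of ENP1 overlapped, as did those of cycle 30 and cycle 12 °C, of which 1 at 30 °C was low.

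ESF1, a nucleolar protein needed to make 18S ribosomal RNA, differed from the other members between the constant temperatures. It read 8.74 and 8.63 at constant 30 °C and 6.38 and 5.85 at constant 12 °C, far lower in the cold. In the cycle ESF1 read 6.59 and 7.56 at 30 °C, 8.78 and 8.79 at 21 °C falling, 8.41 and 8.74 at 14.6 °C, 8.22 and 7.53 at 12 °C, 6.33 and 6.19 at 21 °C rising and 7.27 and 5.33 at 27.4 °C. Both of its cycle 30 °C arrays were below the constant 30 °C arrays, both of its cycle 12 °C arrays were above the constant 12 °C arrays, and the 27.4 °C arrays lay far apart. The array left out at 27.4 °C read 7.19. The fall of ESF1 from 12 °C to 21 °C rising was the smallest of the 47 (-1.61 ± 0.51, adjusted p = 0.0219).

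The other 9 genes all fell from 12 °C to 21 °C rising. ENP2 fell by 3.68 ± 0.35, LCP5, which works with BFR2, by 3.52 ± 0.35, and RRP5, a factor of both ribosomal subunits, by 3.29 ± 0.30. SOF1, a WD-repeat protein, fell by 3.25 ± 0.30, UTP20, a large HEAT-repeat protein, by 3.06 ± 0.32, and UTP7 by 2.23 ± 0.26. BFR2 and UTP11, each with 1 array under background at 21 °C rising, were at least 6.65-fold and 4.96-fold lower there. FAF1 was at least 3.24-fold lower at 21 °C rising, where both arrays were under background. The 10 probe sets of UTP20 ran from -0.97 to 2.42 between cycle 12 and cycle 30 °C, and 7 of them had a mean under background.

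Constant 12 °C against constant 30 °C asked what low temperature does at 1 steady-state growth rate. Few processome genes passed the test. SAS10 rose 4.79-fold (2.26 ± 0.41, adjusted p = 0.00304), NSR1 2.50-fold (1.32 ± 0.27, adjusted p = 0.00501), UTP23 2.27-fold (1.18 ± 0.21, adjusted p = 0.00263) and KRR1 1.86-fold (0.89 ± 0.30, adjusted p = 0.0489). UTP13 and DHR2 (0.76 ± 0.25, adjusted p = 0.0452) made up the rest of the 6 that rose. ESF1 fell 5.96-fold (-2.57 ± 0.51, adjusted p = 0.00456). The 6 that rose were 12.8% of the set, near the 9.99% of all genes called higher, and the 1 that fell was 2.13% against 12.2%. The median of the set was 0.37 against -0.01 over all genes, and 40 members were above 0, as were 2771 of all 5656 genes. At an unadjusted p under 0.05 in limma's test, not counted over all genes, 13 members were higher and 2 lower. Arrays did not overlap for 30 members, 27 of them higher in the cold, which is near the 64.5% of all genes without overlap. Setting the array medians equal moved the median of all genes from -0.01 to 0.11 and that of the members from 0.37 to 0.49. It gave 730 higher and 567 lower genes in place of 565 and 692, and 10 members higher. With quantile normalization the medians were 0.56 over the members and 0.06 over all genes. The member medians were 0.38 and 0.39 without array 1 and array 2 of constant 12 °C, and 0.35 and 0.4 without those of constant 30 °C. Over all genes they were -0.05 to 0.02. Fewer members were called higher in these fits, and fewer of all genes.

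Within the cycle, 12 °C against 30 °C gave 43 members that rose (91.5%; background 16.5%) and none that fell (background 16.3%), also at an unadjusted p under 0.05. The median difference was 1.53 against 0.05 over all genes, with a range of 0.71 to 2.97. After NSR1, UTP6, UTP9 and UTP21, the largest rises were those of NOP14 (3.77-fold), KRR1 (3.72-fold), RRP9 (3.46-fold) and UTP13 (3.45-fold). Not past the test were NOP58, ENP1 (1.18 ± 0.47, adjusted p = 0.0754), FAF1 (0.90 ± 0.34, adjusted p = 0.0585) and ESF1 (0.80 ± 0.51, adjusted p = 0.255). Arrays did not overlap for 45 members, against 61.5% of all genes, ENP1 and ESF1 being the exceptions. Without array 2 of cycle 12 °C the member median was 1.44, against 0.02 over all genes, and fewer members and fewer of all genes passed.

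A test of the difference asked whether the cold effect in the cycle departed from that between constant temperatures. It is made of the same arrays as the comparisons above and is not independent of them. For 10 members the effect was higher in the cycle (21.3%; background 6.56%), and for none was it lower (background 6.33%), also at an unadjusted p under 0.05. ESF1 differed most, from -2.57 between constant temperatures to 0.80 in the cycle (3.37 ± 0.72, adjusted p = 0.011). UTP6 went from 0.35 to 2.90 (2.54 ± 0.53, adjusted p = 0.00984), RCL1 from -0.95 to 1.27 (2.22 ± 0.59, adjusted p = 0.0309) and UTP9 from 0.37 to 2.33 (1.97 ± 0.41, adjusted p = 0.0096). The others were UTP21, NSR1, NOP1, UTP15, UTP4 and UTP14, with differences between 1.90 and 1.23. By role, 3 of the 10 were in UtpA, 2 in UtpB, 1 among the U3 proteins, 2 among the enzymes and partners and 2 among the remaining factors. SAS10 and NOP58 alone had a value below 0 (-0.61 ± 0.58 and -0.05 ± 0.38), and neither passed.

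The member median of the difference was 1.04. It was 0.96 without array 1 of constant 12 °C and also without array 2 of cycle 12 °C. Without array 1 and array 2 of constant 30 °C it was 1 and 1.07. Over all genes it was 0.04 to 0.12 in these fits. Fewer members passed in them, and fewer of all genes. Setting the array medians equal moved the median of all genes from 0.08 to -0.09 and the calls over all genes from 371 higher and 358 lower to 268 and 477.

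**Figure D3:**
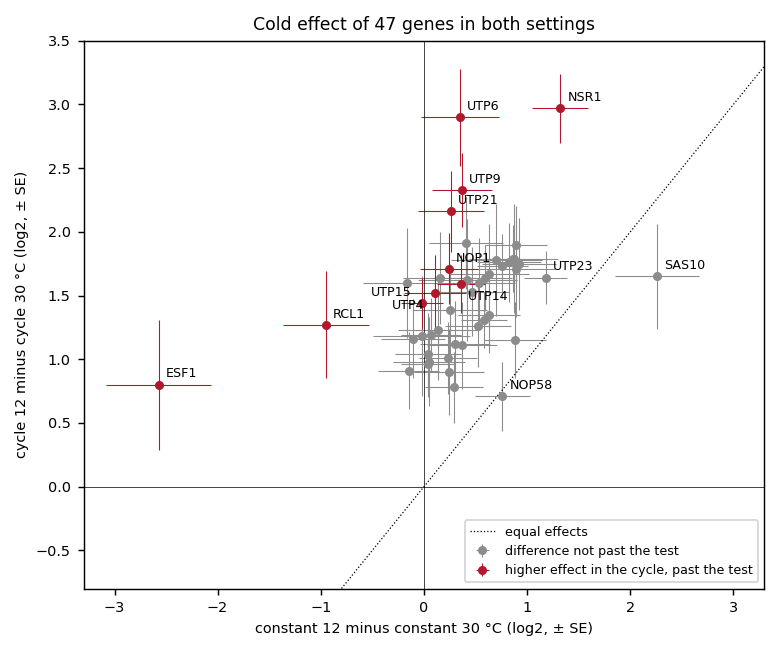
Log2 difference of 12 minus 30 °C between constant cultures (horizontal axis) and within the cycle (vertical axis) for the 47 genes, with SE from 2 arrays per group. The dotted line marks equal effects, 45 genes lie above it, and the 10 red genes passed the test of the difference, ESF1 (-2.57 and 0.80) lying farthest from the line.

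At the warm end, cycle 30 °C was set against constant 30 °C. No member passed limma's test in either direction (background 0.336% higher and 0.866% lower). At an unadjusted p under 0.05 0 were higher and 3 lower, and all genes were not counted at that threshold. The median difference was -0.17 against -0.04 over all genes. ESF1 (-1.61 ± 0.51), RCL1 (-1.25 ± 0.42) and NOP56 (-0.86 ± 0.36) had the lowest values and SAS10 (0.83 ± 0.41) the highest. Arrays did not overlap for 11 members, these 4 among them, against 36.2% of all genes. With array medians set equal the calls over all genes were 23 higher and 31 lower, in place of 19 and 49. Without array 2 of cycle 30 °C 2 members were lower, and 1 was with the left-out array in place of array 2 at 27.4 °C.

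At the cold end, cycle 12 °C was set against constant 12 °C. In the cycle 21 members were higher (44.7%; background 8.84%) and none lower (background 9.35%), also at an unadjusted p under 0.05, with a median of 0.86 against 0.01 over all genes. UTP6 was 4.18-fold higher (2.06 ± 0.38, adjusted p = 0.00424), ESF1 3.39-fold (1.76 ± 0.51, adjusted p = 0.0337), UTP22 2.98-fold (1.57 ± 0.43, adjusted p = 0.0271) and UTP9 2.91-fold (1.54 ± 0.29, adjusted p = 0.00483). The groups did not overlap for any of these 4. UTP22 and RRP7, the members placed in UtpC, both passed, with 4 of the 6 UtpB genes and 4 of the 7 enzymes and partners. Of the 3 Mpp10 complex genes 0 did. NOP56, NOP58 and DIP2 stood at -0.03 ± 0.36, -0.14 ± 0.27 and 0.05 ± 0.38, not past the test. Arrays did not overlap for 39 members, against 59.4% of all genes. Without array 1 and array 2 of constant 12 °C the member medians were 0.81 and 0.9. They were 0.95 and 0.83 without array 1 and array 2 of cycle 12 °C, with 0 to 0.04 over all genes in these 4 fits. Fewer members passed in them, and fewer of all genes. With its dimmest probe set UTP22 stood at 0.58 (adjusted p = 0.627).

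The groups at 21 °C had the same temperature and opposite directions of change. All 47 members read higher while the temperature fell, 45 of them past the test (95.7%; background 18.7%), and none was lower (background 15.2%), also at an unadjusted p under 0.05. The median difference was 2.52, or 2.40 with arrays under background raised to it, against 0.04 over all genes, which became -0.08 with array medians set equal, and no member's arrays overlapped, as for 74.2% of all genes. ENP1 was 11.8-fold higher on the falling side (3.56 ± 0.47, adjusted p = 0.000122), KRR1 at least 10.1-fold (adjusted p = 5.78e-06), IMP3 10.5-fold (3.40 ± 0.36, adjusted p = 2.24e-05) and SAS10 10.2-fold (3.35 ± 0.41, adjusted p = 7.15e-05). UTP4, PWP2 and FAF1, under background on both rising arrays, were at least 3.84-fold, 3.68-fold and 2.33-fold higher. Not past the test were RRP7 (0.75 ± 0.34, adjusted p = 0.112) and RRP9 (1.06 ± 0.43, adjusted p = 0.0793).

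**Figure D4:**
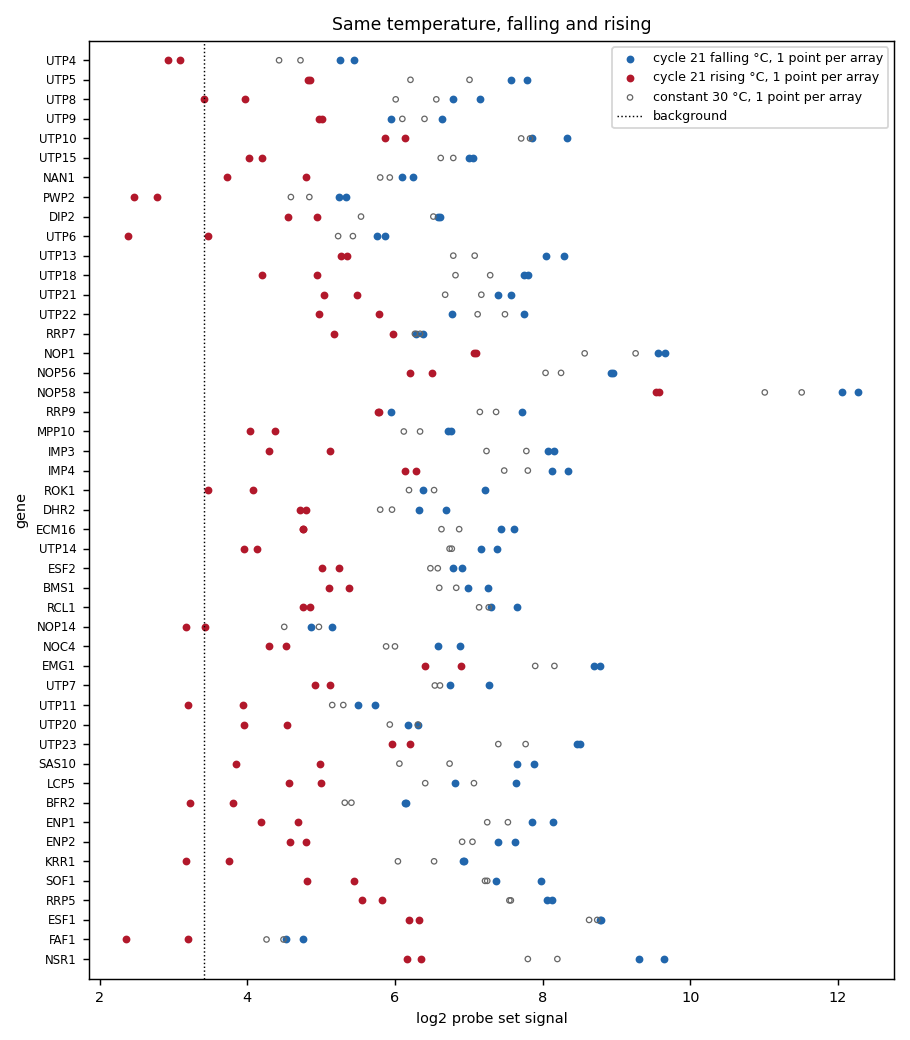
Log2 probe set signal (horizontal axis) of the 47 genes (rows) at 21 °C falling (blue), 21 °C rising (red) and constant 30 °C (open), 1 point per array, with background at 3.41 as a dotted line. Red points lie left of blue points in every row, and those of UTP4, PWP2 and FAF1 lie left of background. Signals of different genes come from different probes and cannot be compared with each other.

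Step by step through the cycle, neighbouring tests share arrays. From 30 to 21 °C falling 12 members rose (25.5%; background 5.22%) and none fell (background 5.94%), with a median of 0.73 and no overlap for 32 (54.3% of all genes). NSR1 (1.71 ± 0.27), UTP5 (1.70 ± 0.48), NOP56 (1.66 ± 0.36) and RCL1 (1.52 ± 0.42) had the largest of these rises, and DIP2, UTP13, NOP58, IMP4, DHR2, UTP14, EMG1 and UTP23 were the others. ESF1 had a value as large, 1.71 ± 0.51, not past the test (adjusted p = 0.0518). Without array 1 of cycle 30 °C 5 members rose, with a median of 0.74, and 2.56% of all genes. Without array 1 and array 2 of 21 °C falling 1 and 2 members rose, with medians of 0.80 and 0.75, and 1.34% and 1.41% of all genes. From 21 °C falling to 14.6 °C no member passed limma's test (background 0.265% higher and 0.424% lower). At an unadjusted p under 0.05, not counted over all genes, 11 members were higher. A positive value was found for 45 members, and for 2539 of all 5656 genes. The members had a median of 0.46, with no overlap for 33 (47.9% of all genes). Without array 1 of 21 °C falling the member median was 0.45, against -0.06 over all genes. From 14.6 to 12 °C none passed (background 0.23% and 0.566%). At an unadjusted p under 0.05, again not counted over all genes, 9 were higher and 1 lower. The median was 0.31, with no overlap for 28 (48.6% of all genes).

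Between 12 °C and 21 °C rising all 47 members fell, against a background of 24% lower and 22% higher. The median change was -3.17, or -3.12 with arrays under background raised to it, against -0.04 over all genes, which became 0.08 with array medians set equal. Among the 38 members above background on all 16 arrays, NSR1 (22.3-fold) and SAS10 (22.1-fold) had the largest falls. KRR1, UTP8 and UTP6, with 1 array under background each, were at least 24.4-fold, 20.4-fold and 19.7-fold lower, and bounds give no order among them. No member's arrays overlapped, as for 74.8% of all genes. By role the median changes ran from -3.49 in UtpB (-3.35 with that background) to -2.79 over UTP22 and RRP7, the members placed in UtpC.

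From 21 °C rising to 27.4 °C 30 members rose (63.8%; background 6.49%) and none fell (background 3.29%), also at an unadjusted p under 0.05, with a median of 1.15 and no overlap for 43 (55.3% of all genes). SAS10 rose 5.10-fold (2.35 ± 0.41) and ROK1 5.03-fold (2.33 ± 0.32), and KRR1 and UTP8, from 1 array under background each, at least 4.51-fold and 4.78-fold. ESF1 (0.04 ± 0.51), BFR2 (0.67 ± 0.31) and RRP7 (0.71 ± 0.34) were among the 17 not past the test, as were 3 of the 4 U3 proteins in the set, all but NOP1. Without array 1 and array 2 of 21 °C rising the member medians were 1.32 and 1.14, and without array 2 of 27.4 °C 1.31, against 0.05 over all genes. Fewer members passed in these fits, and fewer of all genes were higher. With array medians set equal 304 of all genes were higher and 236 lower, in place of 367 and 186. From 27.4 to 30 °C no member passed (background 0.0354% higher and 0% lower). At an unadjusted p under 0.05, not counted over all genes, 4 were higher. The median was 0.37, with no overlap for 14 (29.5% of all genes). The plot of the 6 steps shows 1 fall among 5 steps with medians above 0, which ran from 0.31 to 1.15.

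**Figure D5:**
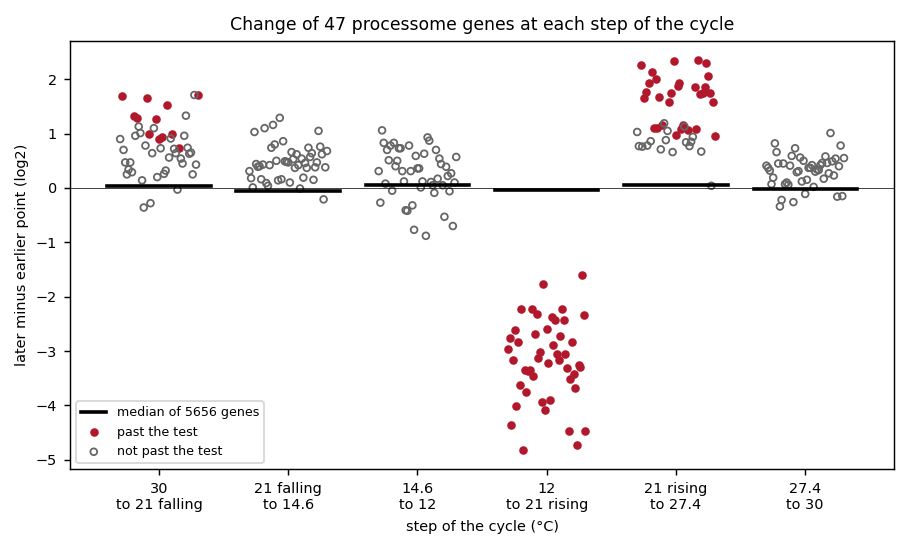
Log2 change of the 47 genes (vertical axis) at each of the 6 steps of the cycle (horizontal axis), later minus earlier point, with filled points past the test, open points not past it, and bars for the median of 5656 genes. All 47 points are filled and negative at the step from 12 °C to 21 °C rising (median -3.17), while the 3 steps before it have medians of 0.73, 0.46 and 0.31.

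Over the 6 points together, the F test found a change for all 47 members (background 48.7%), and the test of a 24-h cosine for 41 (background 43.5%). Fitted peaks of the 41 lay between hour 6.82 (UTP10) and hour 10.3 (UTP9), with a median of 7.61, before the coldest point at hour 12. The median amplitude was 1.13 over the members and 0.44 over all genes. After NSR1 and IMP3, ENP1 (1.63 ± 0.29) and KRR1 (1.60 ± 0.37) had the largest. Without a rhythm call were PWP2, UTP22, RRP7, RRP9, UTP20 and FAF1. A cosine is symmetric while the climb and the drop took unequal times, so that the fitted hour need not be that of the highest sample. With 21 °C rising left out, a choice made after the data were seen, 43 members passed the F test and 45 the rhythm test, against 31.3% and 37.5% of all genes. The members were also longer than most genes, with a median gene length of 1722 bases against 1249.5 over 5486 protein-coding genes.

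Among 30 further processome factors, 19 rose (63.3%; background 16.5%) and 0 fell from cycle 30 to cycle 12 °C (median 1.36), led by the helicase PRP43 (2.31 ± 0.26) and RRT14 (2.03 ± 0.30). Between constant temperatures 8 of the 30 were higher (background 9.99%), led by UTP30 (1.28 ± 0.24) and PRP43 (1.27 ± 0.26), and 0 lower. The cold effect was higher in the cycle for 3, among them RRT14 (1.47 ± 0.43) and SGD1 (1.38 ± 0.33), and 3 of 30 is 10%, near the 6.56% of all genes. At cycle 12 °C 7 were higher than at constant 12 °C (23.3%; background 8.84%), led by UTP25 (1.44 ± 0.37). At 21 °C 25 were higher on the falling side (83.3%; background 18.7%), among them RRP36 and the RNA acetyltransferase KRE33, at least 4.44-fold and 3.12-fold with both rising arrays under background. From 12 °C to 21 °C rising 27 fell (90%; background 24%), among them RRT14 (-4.69 ± 0.30), and 29 of the 30 had their lowest cycle mean there. Of the 4 subunits of casein kinase 2, a kinase with many targets outside the nucleolus, CKA2 fell at this step (-0.90 ± 0.24), while CKA1, CKB1 and CKB2 stood at -0.70 ± 0.36, -0.50 ± 0.23 and -0.07 ± 0.26, not past the test.

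Factors that finish the 40S subunit after the processome formed a list of 13. From cycle 30 to cycle 12 °C 3 rose (23.1%, near the background of 16.5%), among them RRP12 (1.75 ± 0.34), a factor of ribosomal subunit export, and SLX9 (adjusted p = 0.0436). For SLX9 1 array at cycle 30 °C was under background, so that the size of its rise is known only as a bound. Between constant temperatures FAP7 was higher (1.03 ± 0.26) and the kinase HRR25 lower (-0.65 ± 0.19). At 21 °C 8 were higher on the falling side (61.5%; background 18.7%), TSR1 (2.91 ± 0.38) and the methyltransferase DIM1 (2.84 ± 0.25) the most, and 9 fell from 12 °C to 21 °C rising (69.2%; background 24%), with a list median of -1.76, or -1.70 with arrays under background raised to it. RIO1 (0.04 ± 0.20), HRR25 (-0.09 ± 0.19), SQS1 (-0.18 ± 0.26) and the nuclease NOB1 (-0.55 ± 0.45) did not pass at that step. Whether this list differed from the 47 members was not tested.

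Of 11 regulators of ribosome biogenesis genes, 4 were higher at 21 °C falling than at 21 °C rising (36.4%; background 18.7%) and 0 lower (background 15.2%). TOD6, a repressor of such genes, read 7.24 and 7.25 at 21 °C falling and 4.49 and 4.73 at 21 °C rising, without overlap (2.63 ± 0.23, adjusted p = 6.11e-06). Its signal was low at the point where those of the processome genes were low. IFH1, a coactivator of ribosomal protein genes, was higher by 1.47 ± 0.22. From cycle 30 to cycle 12 °C 5 of the 11 rose (45.5%; background 16.5%) and 0 fell (background 16.3%). They were HMO1 (1.35 ± 0.27), CRF1, TOD6 (1.10 ± 0.23), RAP1 (1.06 ± 0.32) and DOT6 (0.87 ± 0.27). From 12 °C to 21 °C rising 7 fell (63.6%; background 24%), TOD6 by 3.07 ± 0.23 and HMO1 by 1.81 ± 0.27. In the constant cold HMO1 was higher (1.43 ± 0.27), and CRF1 (-1.46 ± 0.34), IFH1 (-1.15 ± 0.22) and STB3 (-1.02 ± 0.28) were lower. CRF1, a corepressor of ribosomal protein genes, rose from cycle 30 to cycle 12 °C (1.13 ± 0.34), so that its cold effects differed by 2.58 ± 0.48 (adjusted p = 0.00593). CRF1 read 5.49 and 5.52 at constant 30 °C, and 4.32 and 3.56 at cycle 30 °C, the last being near background. Cycle minus constant 30 °C was -1.57 ± 0.34 for CRF1, not past the test. Its cycle 12 °C arrays, at 4.9 and 5.24, were still below those of constant 30 °C. The highest cycle arrays of CRF1 were those of 21 °C rising, at 5.32 and 5.5. SFP1, an activator of the regulon, differed by 0.48 ± 0.28 between cycle 12 and cycle 30 °C and by -0.26 ± 0.28 between the groups at 21 °C, neither past the test.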

How the data were processed

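The data were 17 arrays of the Affymetrix Yeast Genome S98 design. The authors deposited, for each probe set, an intensity that is not on a log scale. The submitters' processing notes name RMA, with no version, while the values reach 0 and share a trimmed mean of 240.18 to 240.24 per array, which is a scaling of each array. From the intensity deposited by the authors, values were raised to a floor of 1 and taken to log2 here. Of 9335 probe sets, 6504 had 1 gene symbol, 328 several and 2443 none, and 60 were controls. All 6504 were matched to RefSeq names of assembly R64, giving 5656 genes. Array number limits the precision.

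A single limma fit (limma 3.58.1, statmod 1.5.0, R 4.3.3) over 16 arrays in 8 groups of 2, with 8 residual degrees of freedom, gave all moderated tests, with Benjamini-Hochberg adjustment over 5656 genes and a threshold of 0.05. The shared spread assumes like variation in all groups. Level bounds used background in place of signals under it. Given array by array were up to 4 members with the largest rise and 4 with the largest fall past the test per comparison, without overlap, and the member with the largest amplitude per role. Any of the 47 members could be named. Other lists give the 2 largest changes, and further genes of them were named after their values were seen. The members and lists were chosen with earlier results of these data known. The scripts were tested on simulated data.

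Replicate numbers were not used to pair the samples in the main fit. Over 28 pairs of groups, same-numbered deviations correlated at -0.4 to 0.491, above 0.1 in 7. Cycle 12 °C correlated at 0.441 with 27.4 °C and at -0.4 with cycle 30 °C. Numbers that change culture between groups would hide a pairing from this check, so whether arrays share cultures was not settled. Alternatives were quantile normalization, array medians set equal, a floor of 12, dim genes left out, all probe sets or the dimmest of a gene, the groups compared alone, the replicate block, the third array at 27.4 °C used, a gene length trend taken off, another prior, and each array left out. Promoter sequences were not analysed here.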

Additional observations from a re-analysis of the deposited data

Results flagged for a closer look

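For 10 members the cold effect differed between the cycle and the constant temperatures by limma's test of the difference (cycle minus constant, log2, past the adjusted threshold). The differences were 3.37 for ESF1, 2.54 for UTP6, 2.22 for RCL1, 1.97 for UTP9, 1.90 for UTP21, 1.65 for NSR1, 1.46 for NOP1, 1.45 for UTP15, 1.41 for UTP4 and 1.23 for UTP14. Between constant temperatures ESF1 and RCL1 had differences of -2.57 and -0.95, and the other 8 had differences of -0.02 (UTP15) to 1.32 (NSR1). All 10 had a higher mean at cycle 12 °C than at cycle 30 °C. RCL1 passed in 14 of 21 alternatives, and ESF1, UTP6 and UTP9 in all 21.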

How the results depend on the processing

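For members with the largest changes past the test, cycle steps aside, or the largest amplitude per role, no value reversed direction in the alternatives. No split of members into higher and lower reversed either. Other values could turn: with its dimmest probe set NOP58 stood at -1.11 between constant temperatures, in place of 0.76. Splits over all genes did turn, among others with array medians set equal, beside those given above. That setting gave 840 higher and 999 lower in place of 931 and 924 from cycle 30 to cycle 12 °C. Between the groups at 21 °C it gave 899 and 1024 in place of 1055 and 860. From 12 °C to 21 °C rising it gave 1384 and 1202 in place of 1245 and 1358. Fitting only the groups compared left 2 arrays a group to estimate the spread, and 3 members were higher between constant temperatures, 19 from cycle 30 to cycle 12 °C, 4 in the difference, 0 at cycle against constant 12 °C, 0 from 30 to 21 °C falling and 0 from 21 °C rising to 27.4 °C. Over all genes that setting gave 686, 782, 343, 0, 1 and 1 calls in place of 1257, 1855, 729, 1029, 631 and 553, 0 in place of 68 at 30 °C, and 2, 0 and 0 in place of 39, 45 and 2 at the other upward steps. Array medians set equal gave 10 members higher between constant temperatures and 7 from 30 to 21 °C falling. The left-out array in place of array 2 at 27.4 °C gave 1 member lower at 30 °C and 73 calls from 14.6 to 12 °C over all genes. In place of array 1, or added, it gave 947 and 855 calls from 21 °C rising to 27.4 °C, and 10 and 9 from 27.4 to 30 °C (5 in place of array 2). Taking off a gene length trend or using another prior gave 110 and 106 calls at 30 °C. With each array left out in turn, the lone array of its group being assumed to vary like the others, members higher numbered 2 to 3 between constant temperatures, 27 to 35 from cycle 30 to cycle 12 °C, 5 to 11 in the difference, 5 to 14 at 12 °C, 43 to 46 at 21 °C, 1 to 14 from 30 to 21 °C falling, 0 to 1 from there to 14.6 °C and 9 to 29 from 21 °C rising to 27.4 °C. Members lower numbered 0 to 2 at 30 °C and 46 to 47 from 12 °C to 21 °C rising, and a rhythm was called for 35 to 43. With the replicate number as a block 42 members rose from cycle 30 to cycle 12 °C, as with crossed numbers of cycle 30 °C, a choice made after the data were seen; 46 were higher at 21 °C falling and 4 in the constant cold. In most fits with an array left out, fewer of all genes were called as well. Calls were lost for KRR1 between constant temperatures in 8 of 17 alternatives, RCL1 in the difference in 7 of 21, and ESF1 and UTP22 at 12 °C in 6 and 5 of 17. The cause was not tested. Among the members, signals under background at 21 °C rising limit UTP4, PWP2 and FAF1 (both arrays) and UTP8, UTP6, NOP14, UTP11, BFR2 and KRR1 (1 array) to bounds.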
